A study of Mus musculus with 6 samples.

Results

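Granins are acidic proteins that are packed with peptide hormones and amines into the dense-core granules of neurons and endocrine cells. Prohormone convertases cut precursors at pairs of basic residues inside the granule, and a carboxypeptidase then trims the exposed residues to give the mature peptide. In sympathetic neurons and adrenal chromaffin cells, chromogranin A is stored with noradrenaline and adrenaline and is released with them. The genes described here are the granin and prohormone processing genes Chga, Chgb, Scg2, Scg3, Scg5, Vgf, Pcsk1, Pcsk2, Cpe and Pcsk1n, taken by symbol. Of these 10 genes, 5 had a row among the 23508 genes of the count table, namely Chga, Scg3, Scg5, Vgf and Cpe. Chgb, Scg2, Pcsk1, Pcsk2 and Pcsk1n were not analysed here.

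RNA was sequenced from 6 tumors of 4T1, a mouse mammary carcinoma line often used to model breast cancer of the triple-negative kind. According to the labels, 3 tumors were taken ahead of the first peak in recorded neural activity (before peak) and 3 when it occurred (with peak), and the series title ties that activity to the sympathetic nervous system. No genotype, host strain, age, day of collection or treatment is given for either group, and the line is shared by both, so tumor age and the peak cannot be told apart. Whether tumors of a group grew in separate animals is not stated, so the errors below measure only the spread between these samples. Total counts were 10591067 to 14549357 per tumor, and 1 count was worth 0.0701 to 0.0970 CPM (counts scaled to a common library size with TMM factors). Wherever 3 values are listed for a group, they are those of its replicates 1, 2 and 3 in that order. All 6 markers of the carcinoma epithelium had counts in all tumors, with a summed level, most of it from Krt8 and Krt18, of 3437 to 4417 CPM before the peak and 2811 to 4284 CPM with it.

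The genes were chosen by their place in 1 pathway and by the with-peak and before-peak CPM of Chga in this same comparison, so the values below are a description and carry no test. Of the 3 genes that passed the filter on low counts (Chga, Scg3 and Cpe), the edgeR quasi-likelihood test called 0 higher and 0 lower at an adjusted p under 0.05, against 0% of the 16755 genes tested in each direction. At an unadjusted p under 0.05, 1 of them (Chga) passed, as did 1592 genes in all (9.5%). DESeq2 called 1 of the 5 genes, Chga, where it called 1.24% of its genes higher and 0.119% lower. Without the filter, edgeR called 0 of the 5, where 0.111% of genes were called higher and 0.0128% lower. Since the choice of genes used the CPM of Chga, its unadjusted pass and its DESeq2 call restate that choice and are no support. Chga reached the filter's minimum count of 10 only in the with-peak tumors. Its before-peak counts were 2, 4 and 1.

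Chga, which encodes chromogranin A, lies on chromosome 12 from 102554969 to 102565028 on the plus strand (GRCm38, GENCODE M21). It had 2, 4 and 1 counts in the before-peak tumors, against 33, 54 and 19 in the with-peak tumors. Every with-peak tumor lay above every before-peak tumor, and the groups did not overlap. Of the genes tested, 8.13% did not overlap with the with-peak tumors higher and 7.38% with them lower. The level was 0.186 ± 0.117 CPM in before-peak and 2.80 ± 1.26 CPM in with-peak tumors (SD, n = 3), a log2 fold change of 3.83 (SE 0.65). Summed over each group, 7 counts stood against 106, a 15.1-fold higher level after scaling (exact 95% interval 7.08 to 38.5, for counting error only). The lowest with-peak tumor was still 5.89-fold above the highest before-peak tumor, and the counting intervals of those tumors, 1.11 to 2.88 and 0.0853 to 0.802 CPM, did not overlap. Of the 16755 genes tested, 15 (0.0895%), Chga included, had a log2 fold change at least as large. Because the choice of genes used these values of Chga, that rank describes the choice and is no measure of rarity. The fold change depends on how the few before-peak counts are stabilised, since a prior count of 2 in place of edgeR's default gave a log2 value of 3.09. In bulk tissue, fewer cells of a type and less RNA per cell cannot be told apart.

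The sequence before the annotated start of Chga is shown beside those of Scg3 and Scg5, the granin genes with a promoter window whose mean level was lower in the with-peak tumors. The RefSeq windows of the GRCm38.p6 build matched 3 of the 5 genes, and each stretch ends at the base before the GENCODE gene start, read 5′ to 3′ on the gene's strand. Capitals mark matches, on either strand, to TGACG (the core of the cAMP response element), GGGCGG (the GC box) and TATAAA (the TATA box).
Chga: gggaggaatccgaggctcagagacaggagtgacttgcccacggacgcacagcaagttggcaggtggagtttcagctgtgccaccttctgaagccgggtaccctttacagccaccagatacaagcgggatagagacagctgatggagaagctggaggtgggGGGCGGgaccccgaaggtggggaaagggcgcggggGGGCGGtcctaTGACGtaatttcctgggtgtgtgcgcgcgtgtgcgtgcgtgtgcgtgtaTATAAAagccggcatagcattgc
Scg3: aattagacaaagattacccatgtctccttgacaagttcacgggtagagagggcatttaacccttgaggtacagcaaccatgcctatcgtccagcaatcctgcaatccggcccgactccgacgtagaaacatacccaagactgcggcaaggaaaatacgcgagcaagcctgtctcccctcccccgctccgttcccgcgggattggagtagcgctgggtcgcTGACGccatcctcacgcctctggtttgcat
Scg5: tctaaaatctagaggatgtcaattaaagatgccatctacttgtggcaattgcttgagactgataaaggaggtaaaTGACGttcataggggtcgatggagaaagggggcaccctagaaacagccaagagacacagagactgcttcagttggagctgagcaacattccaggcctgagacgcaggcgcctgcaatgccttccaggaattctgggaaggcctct
These are chr12:102554691-102554968 (plus strand), chr9:75684057-75684306 (minus strand) and chr2:113829122-113829341 (minus strand). In Chga, TATAAA begins 23 bases before the gene start, TGACG 72 bases before it, and copies of GGGCGG begin 83 and 118 bases before it. Scg3 has TGACG beginning 30 bases before its start and neither of the other motifs. Scg5 has TGACG beginning 145 bases before its start, and its window holds 2 further matches on either strand and 1 GC box past the start. These places are counted from the GENCODE start. The windows take 250 bases before and 50 bases after the RefSeq start, which differs from the GENCODE start in Chga and Scg5. Counted from the RefSeq start, the TATAAA of Chga lies past the start and the GC box of Scg5 before it. None of the 3 windows holds the full palindrome TGACGTCA, which contains TGACG on both strands. Of all 32851 windows of 300 bases, 20.8% hold TGACG, 35.7% GGGCGG, 13.6% TATAAA and 1.79% TGACGTCA, so a match to the core alone sets none of the 3 genes apart from each other.

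Scg3 encodes secretogranin III, which binds chromogranin A and helps to hold it at the membrane of the forming granule (chromosome 9, 75643189 to 75684056, minus strand). It had 31, 9 and 26 counts in the before-peak tumors, against 0, 17 and 7 in the with-peak tumors. The groups overlapped, because with-peak replicate 2 lay above before-peak replicate 2, and with-peak replicate 1 held none of its reads. A count of 0 in that tumor allows a level of up to 0.210 CPM. The level was 1.79 ± 0.95 CPM in before-peak and 0.670 ± 0.666 CPM in with-peak tumors (SD, n = 3), a log2 fold change of -1.42 (SE 0.97). The value is -0.80 without with-peak replicate 1 and -2.48 without with-peak replicate 2.

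Scg5 encodes 7B2, the chaperone that prohormone convertase 2 needs to mature (chromosome 2, 113776362 to 113829121, minus strand). It had 11, 2 and 43 counts in the before-peak tumors, against 1, 6 and 3 in the with-peak tumors. Before-peak replicate 3 stood alone at 3.58 CPM, and all other tumors were at 0.0701 to 0.883 CPM, so the groups overlapped. Scg5 did not pass the filter on low counts, and a fit without the filter gave a log2 fold change of -2.45 (SE 1.05). Without before-peak replicate 3 that value is -0.91. The same tumor stood apart in B and plasma cell markers, whose 6 genes summed to 369.9 CPM there and to 3.76 to 73.2 CPM in the other tumors. The part of those cells in the Scg5 value was not tested.

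Vgf encodes a secreted precursor that is cut into several neuropeptides and is induced by nerve growth factor in neurons (chromosome 5, 137026392 to 137033351, plus strand). It had 9, 4 and 17 counts in the before-peak tumors, against 3, 1 and 10 in the with-peak tumors. Replicate 3 was the highest of each group, and the groups overlapped. The level was 0.817 ± 0.558 CPM in before-peak and 0.420 ± 0.481 CPM in with-peak tumors (SD, n = 3). Vgf did not pass the filter either, and without the filter its log2 fold change was -1.0 (SE 0.95). The value is -2.41 without with-peak replicate 3 and -0.36 without before-peak replicate 3.

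Cpe encodes carboxypeptidase E, which removes the basic residues left by the convertases (chromosome 8, 64592542 to 64693054, minus strand). It was the one abundant gene of the group, with 4247, 3834 and 2843 counts in the before-peak tumors, against 3771, 2358 and 2500 in the with-peak tumors. Before-peak replicates 1 and 2 were the highest at 340.9 and 300.2 CPM, while before-peak replicate 3 at 236.9 CPM lay below with-peak replicates 1 and 3, so the groups overlapped. The level was 293 ± 52.4 CPM in before-peak and 231 ± 41.2 CPM in with-peak tumors (SD, n = 3), a log2 fold change of -0.34 (SE 0.17). Counting error is small here, since each tumor's 95% interval spans at most 330.7 to 351.3 CPM, and the spread between tumors sets the error. Leaving out 1 tumor at a time gave -0.48 (without before-peak replicate 3) to -0.21 (without with-peak replicate 2).

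**Figure D1:**
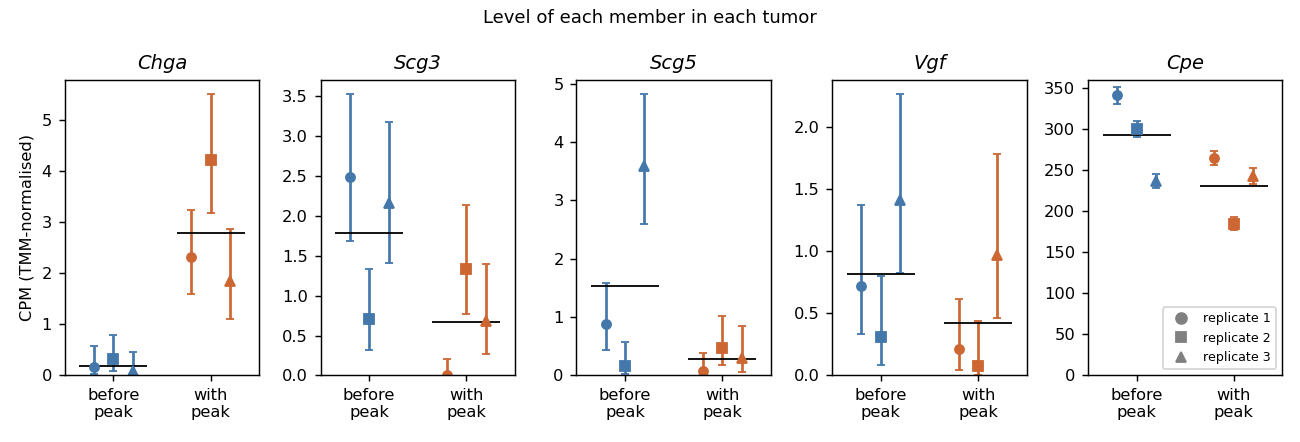
Level of Chga, Scg3, Scg5, Vgf and Cpe in CPM (linear axes from 0, each gene on its own scale) in the 3 before-peak (blue) and 3 with-peak (orange) tumors, with exact 95% counting intervals as bars (for the count of 0, up to the 3-count limit) and group means as lines. Only in the Chga panel do all with-peak tumors, at 1.84 to 4.23 CPM, lie above all before-peak tumors, at 0.0833 to 0.313 CPM; Scg5 is carried by before-peak replicate 3.

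Per kilobase of exon the order of the genes differed between the groups. Before the peak, the mean levels were 112.2 CPM per kb for Cpe, 0.982 for Scg5, 0.652 for Scg3, 0.275 for Vgf and 0.0674 for Chga. With the peak they were 88.4 for Cpe, 1.02 for Chga, 0.245 for Scg3, 0.177 for Scg5 and 0.141 for Vgf. Cpe was the highest of the 5 genes in all 6 tumors, 39.8-fold to 447-fold above the next gene. Chga ranked last in before-peak replicates 1 and 3 and the third in before-peak replicate 2, and it was the next after Cpe in all 3 with-peak tumors. Scg5, Scg3 and Vgf overlapped each other over the tumors of either group, and their order there does not exceed their spread. Before the peak Chga also overlapped Vgf, its neighbour in the order. With the peak the lowest Chga value, 0.669 CPM per kb, lay above the highest Scg3 value, 0.486 CPM per kb.

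The mix of granin reads differed between the groups, while their sum overlapped. The reads of Chga, Scg3, Scg5 and Vgf together came to 4.25, 1.49 and 7.25 CPM in the before-peak tumors, against 2.60, 6.11 and 3.78 CPM in the with-peak tumors, so the sums of the groups overlapped. Chga made up 3.77% (exact 95% interval 0.46 to 13.0) of these 53 counts in before-peak replicate 1, 21.1% (6.05 to 45.6) of 19 in replicate 2 and 1.15% (0.0291 to 6.24) of 87 in replicate 3. It made up 89.2% (74.6 to 97.0) of 37 counts in with-peak replicate 1, 69.2% (57.8 to 79.2) of 78 in replicate 2 and 48.7% (32.4 to 65.2) of 39 in replicate 3. The shares of the groups did not overlap, but the intervals of before-peak replicate 2 and with-peak replicate 3 did. The remaining granin reads were at 4.09, 1.17 and 7.17 CPM before the peak and at 0.281, 1.88 and 1.94 CPM with it. Part of the shift in share thus lay in the other granins, which were themselves highest in before-peak replicates 1 and 3. The rest restates the difference in Chga, by whose CPM the genes were chosen and whose counts are the numerator of the share.

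**Figure D2:**
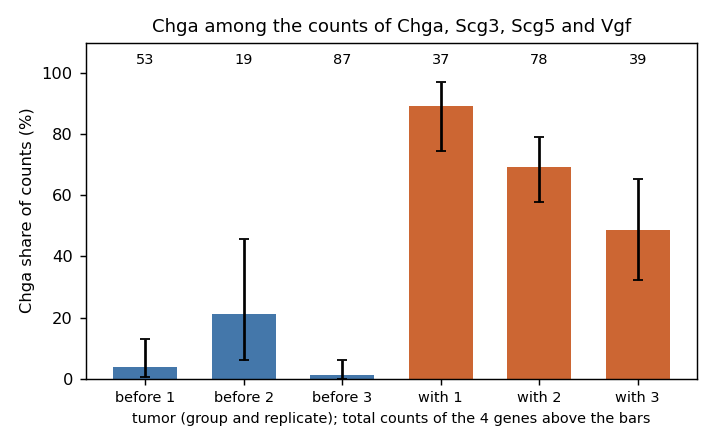
Share of Chga in percent of the counts of Chga, Scg3, Scg5 and Vgf in each tumor (bars, blue before peak, orange with peak) with exact 95% binomial intervals, and the number of counts above each bar. The share is 1.15% to 21.1% in before-peak and 48.7% to 89.2% in with-peak tumors, on 19 to 87 counts per tumor.

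Across tumors the profiles of the other members lay nearer to each other than to Chga. Likeness was measured as the root mean square difference between log2 CPM profiles (2 counts added), each centred on its own mean over the 6 tumors, so that 0 means the same profile. The pair Scg3 and Scg5 differed by 0.90, Vgf and Cpe by 0.93, Scg5 and Vgf by 1.01, Scg3 and Vgf by 1.29, Scg5 and Cpe by 1.40 and Scg3 and Cpe by 1.44. Chga differed by 1.78 from Cpe, 2.36 from Vgf, 2.62 from Scg5 and 2.63 from Scg3. These profiles share libraries and, apart from Cpe, rest on few counts. The genes were chosen by the CPM of Chga in both groups, and that difference enters each distance from Chga. The distances from Chga therefore carry that choice and are no separate result. Over the 13417 protein-coding genes compared next, the median distance from Chga was 1.61.

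Among 13417 protein-coding genes of at least 1 CPM on average, the profiles nearest to that of Chga were those of Gpnmb, Trnp1, Ms4a8a, Dtna and Mustn1, at 0.42, 0.54, 0.58, 0.59 and 0.60, against a median of 1.61. Gpnmb, a transmembrane glycoprotein of macrophages and melanocytes (chromosome 6, 49036546 to 49070929), had 16, 41 and 15 counts in the before-peak tumors, against 95, 233 and 109 in the with-peak tumors. Like Chga, it was highest in with-peak replicate 2 and, before the peak, in replicate 2. Trnp1, a nuclear regulator of neural progenitor proliferation, was at 0.588 ± 0.169 and 3.13 ± 0.89 CPM, and Ms4a8a, a member of a membrane protein family, at 2.16 ± 0.85 and 9.87 ± 2.14 CPM (SD, n = 3). Dtna, the alpha dystrobrevin of the dystrophin complex, was at 0.323 ± 0.010 and 1.90 ± 0.76 CPM, and Mustn1, a gene of the musculoskeletal system, at 2.35 ± 0.70 and 12.4 ± 3.92 CPM. In each of these 5 genes the groups did not overlap, which the choice by likeness to Chga brings with it. Trnp1 and Dtna averaged under 1 CPM before the peak and met the minimum only through the with-peak tumors.

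**Figure D3:**
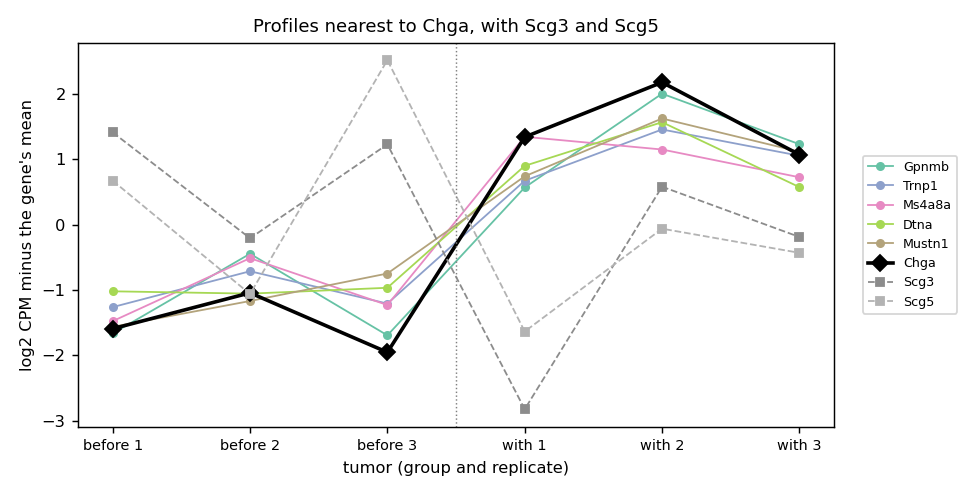
Log2 CPM (2 counts added) minus the gene's own mean in each tumor for Chga (black), the 5 nearest genes (coloured) and Scg3 and Scg5 (grey, dashed); lines only join the points of a gene. Chga and its nearest genes are above their means in all 3 with-peak tumors, whereas Scg3 and Scg5 are highest in before-peak replicates 1 and 3.

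Chga is a marker of sympathetic and chromaffin cells, so the other markers of cells that could hold it are given beside it. Of 11 sympathetic and chromaffin markers, 6 had a row (Ddc, Slc6a2, Slc18a1, Slc18a2, Phox2a and Chrnb4), and their summed level was 7.08 to 14.9 CPM before the peak and 6.50 to 8.46 CPM with it. In none of the 6 did the groups separate. Slc18a2, the vesicular monoamine transporter that loads granules with noradrenaline, had 67, 66 and 29 counts before the peak and 52, 34 and 37 with it. It was the largest single part of the sum in each tumor. The highest sum was that of before-peak replicate 1, where Slc6a2 had 60 counts. Th, Dbh, Pnmt, Hand2 and Chrna3 were not analysed here. Of the general neuron markers, 10 of 12 had a row, and their sums of 21.6 to 25.6 and 19.9 to 29.8 CPM overlapped. Map2, a microtubule protein gene, made up most of these sums, and the other 9 genes summed to 3.84 to 7.79 CPM before the peak and 5.19 to 8.70 CPM with it. Tubb3 (neuronal tubulin) and Elavl4 (a neuronal RNA-binding protein) were the 2 of these that were higher in all with-peak tumors, and 0 were lower in all. Of the genes tested, 8.13% were higher and 7.38% lower in this way, but Elavl4 did not pass the filter on low counts. Stmn2, Uchl1, Elavl3 and Map2 had higher means with the peak, Syn1, Nefh, Prph and Nefm had lower means, and in all of these the groups overlapped. Elavl4 had 0 counts in each before-peak tumor and 4, 9 and 1 in the with-peak tumors. The 3 enteroendocrine and islet markers with a row summed to 0.917 to 3.21 CPM before the peak and 0.679 to 1.61 CPM with it. Of these, Pax6, a regulator of islet and neural cells, was higher in CPM in all with-peak tumors, with 13, 8 and 5 counts against 5, 4 and 1. With-peak replicate 3 and before-peak replicate 1 both had 5 counts, so their separation rests on the scaling of the libraries. Pax6 did not pass the filter on low counts. The other islet and enteroendocrine markers with a row, Insm1 and Tph1, had lower means with the peak, and their groups overlapped.

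The summed markers of macrophages and of erythroid cells, unlike those sums, did not overlap between the groups. The summed markers of Schwann cells, mast cells, fibroblasts, endothelium, adipocytes, and B and plasma cells overlapped. The 8 macrophage markers summed to 1972 to 3316 CPM before the peak and 3658 to 5344 CPM with it, and 4 of the 8 were higher in all with-peak tumors, where 8.13% of the genes tested were. The 5 erythroid markers summed to 137 to 250.1 and 277 to 2148 CPM, and 4 of the 5 were higher in all with-peak tumors. The 8 skeletal muscle markers were at 52.9 to 253 CPM before the peak and at 227, 1297 and 1317 CPM in the with-peak tumors, whose Chga was at 2.32, 4.23 and 1.84 CPM, and 3 of these 8 did not overlap. Of the 6 carcinoma markers, Cdh1 (E-cadherin) and Krt14 (a basal keratin) were lower in all with-peak tumors, where 7.38% of the genes tested were lower. Their log2 fold changes were -0.49 (SE 0.19) and -0.35 (SE 0.15). In Epcam, Krt8, Krt18 and Krt7 the groups overlapped, as did the summed level of the 6 markers. The part of these cells in the Chga difference was not tested.

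The enzymes that cut and trim precursors alongside the granins lay close to 0 as a list. Of 17 other proprotein convertases and peptide-trimming enzymes, 16 were tested, 8 of them above and 8 below 0, with a median log2 fold change of 0.02, where all genes tested had a median of -0.02 and 47.7% above 0. None was called by edgeR or DESeq2, and 1 of the 16 had an unadjusted p under 0.05, against 9.5% of all genes tested. Furin, the convertase of the constitutive secretory route, averaged 243 ± 41.6 CPM before peak and 236 ± 13.7 CPM with peak (log2 fold change -0.04, SE 0.14). Pam, which amidates the ends of peptide hormones, averaged 199 ± 22.9 CPM before peak and 168 ± 11.2 CPM with peak (log2 fold change -0.25, SE 0.12). All with-peak tumors lay below all before-peak tumors in Pam, as in Mbtps1 and the untested Cpm of this list and in 7.38% of the genes tested. Pam spans 3 other genes of the table, so its counts are uncertain to that extent. Cpz, a carboxypeptidase of the extracellular matrix, had 84, 54 and 107 counts before the peak and 170, 245 and 76 with it (log2 fold change 0.96, SE 0.39), and the groups overlapped.

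Genes of dense-core vesicle formation and release lay around 0 as well. Of the 26 genes, 19 were tested, 9 above and 10 below 0 with a median of 0.00; edgeR and DESeq2 called 0, and 2 of the 19 had an unadjusted p under 0.05, close to the 9.5% of all genes. Rab27b, a small GTPase that tethers secretory granules at the membrane, was at 26.2 ± 1.25 CPM in before-peak and 19.3 ± 1.63 CPM in with-peak tumors (log2 fold change -0.44, SE 0.15). Cyb561, the cytochrome that supplies electrons inside chromaffin granules, averaged 58.3 ± 13.4 CPM before peak and 45.2 ± 0.40 CPM with peak (log2 fold change -0.37, SE 0.16) and overlaps a gene on the opposite strand, which these unstranded counts cannot separate. In both genes all with-peak tumors lay below all before-peak tumors, as in 7.38% of the genes tested. Eipr1, of the same list, went the other way, with all with-peak tumors above all before-peak tumors, as in 8.13% of the genes tested. It averaged 21.7 ± 0.65 CPM before peak and 24.0 ± 0.91 CPM with peak (log2 fold change 0.14, SE 0.14). Ptprn, a membrane protein of the granule also known as IA-2, averaged 12.6 ± 3.34 CPM before peak and 14.6 ± 4.16 CPM with peak (log2 fold change 0.22, SE 0.29). The vesicle fusion proteins Vamp2 and Dnajc5 had log2 fold changes of 0.00 (SE 0.12) and 0.01 (SE 0.10). At the ends of the tested list stood Syt11 at 0.86 (SE 0.46) and Syt7 at -0.46 (SE 0.39), and in both the groups overlapped.

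Few precursors on which this machinery acts were measurable. Of 38 prohormones and peptide precursors, 19 had a row and 10 were tested, 4 above and 6 below 0, with a median of -0.25. edgeR and DESeq2 called 0 of them, and 0 had an unadjusted p under 0.05. Penk, the enkephalin precursor that chromaffin cells store with catecholamines, had 201, 104 and 176 counts before the peak and 59, 132 and 76 with it. With-peak replicate 2 lay within the before-peak range, and the log2 fold change was -0.83 (SE 0.37); Penk overlaps a gene on the opposite strand. Ucn2, a peptide of the corticotropin-releasing family, averaged 4.36 ± 2.22 CPM before peak and 2.70 ± 1.01 CPM with peak (log2 fold change -0.70, SE 0.47). The 9 precursors with a row that were not tested had 0 to 25 counts per tumor. Among them, Gal, the galanin precursor of sympathetic and sensory neurons, had 10, 5 and 7 counts before the peak and 3, 4 and 2 with it.

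Among 13 transcription regulators of neuroendocrine identity and cAMP response, 8 were tested, 3 above and 5 below 0, with a median of -0.19. Their log2 fold changes ran from -0.72 (SE 0.48) in Phox2a to 0.64 (SE 0.41) in Atf3. None was called by edgeR or DESeq2, and 0 had an unadjusted p under 0.05. Rest, which represses granin genes in cells that are not neural, averaged 69.8 ± 6.36 CPM before peak and 59.5 ± 9.49 CPM with peak (log2 fold change -0.23, SE 0.14), and the groups overlapped. Gata3, a factor of luminal epithelium and of sympathetic neurons, averaged 85.7 ± 18.0 CPM before peak and 66.7 ± 13.7 CPM with peak (log2 fold change -0.36, SE 0.19) and overlaps 3 other genes of the table. Creb1, which binds the cAMP response element, averaged 93.4 ± 7.43 CPM before peak and 84.3 ± 6.77 CPM with peak (log2 fold change -0.15, SE 0.12). Insm1, a regulator of neuroendocrine fate, had 0 to 6 counts per tumor and was not tested.

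**Figure D4:**
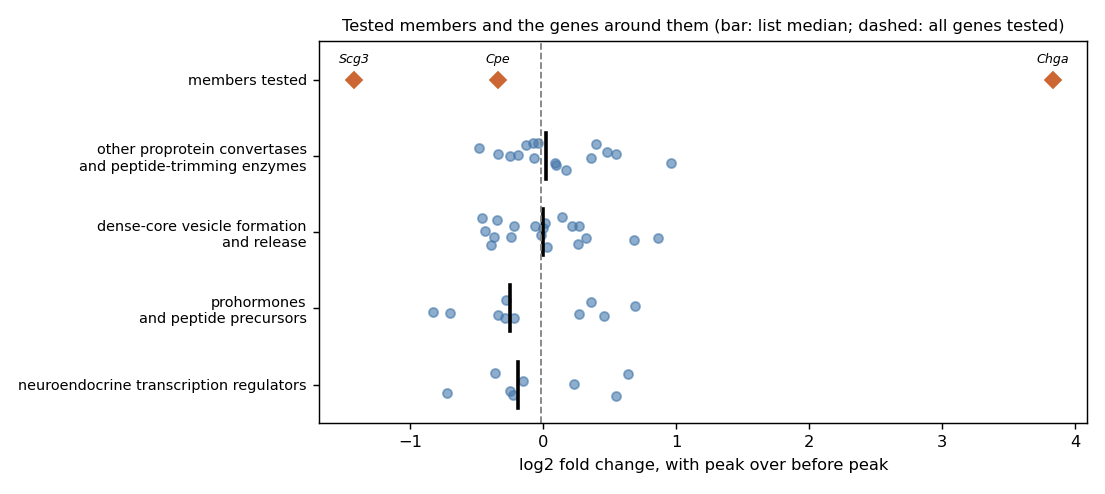
Log2 fold change (with peak over before peak) of the 3 tested members (orange diamonds) and of the tested genes of 4 lists around them (blue points, spread vertically at random; black bar, list median; dashed line, median of all genes tested). Chga stands at 3.83, while all tested genes of the 4 lists lie between -0.83 and 0.96.

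The direction of each member held in all settings that were tried. Over 13 alternatives the log2 fold change of Chga was 3.09 to 4.41, that of Scg3 -2.48 to -0.80 and that of Cpe -0.48 to -0.21. Over the 11 alternatives that apply to genes below the filter, that of Scg5 was -3.11 to -0.91 and that of Vgf -2.41 to -0.36. A kept direction does not show a difference for Scg3, Scg5, Vgf and Cpe, whose groups overlapped. For Chga, whose groups did not overlap, leaving out a tumor could not reverse the direction, so the kept direction adds no support there.

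**Figure D5:**
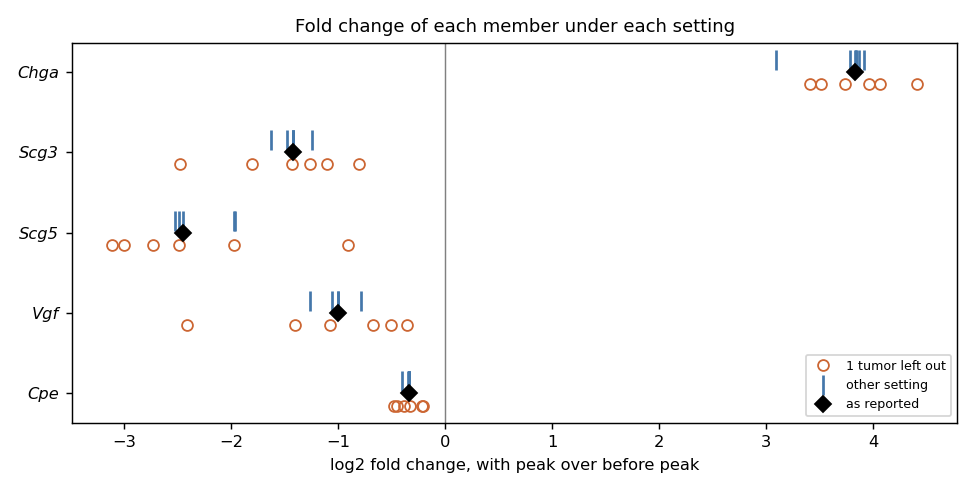
Log2 fold change (with peak over before peak) of each member as reported (black diamond), with 1 tumor left out (orange circles) and under the other settings (blue ticks). All values of Chga are at 3.09 or above, and all values of Scg3, Scg5, Vgf and Cpe are below 0, with the widest spread in Scg5 and Vgf.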

How the data were processed

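Per the labels' protocols, RNA from snap-frozen tumors was extracted with Trizol, and poly(A) RNA went into paired-end libraries that do not keep the strand. The authors deposited raw counts, not normalized, with a column for each tumor. The submitters' processing notes name STAR, FastQC and mm10; which counter, annotation or filter was used is not given in the sources used here. Of 23508 rows, 23479 matched GENCODE M21.

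Counts were analysed with edgeR 4.0.16 in R 4.3.3 (filterByExpr with a minimum count of 10 and total of 15, TMM, robust quasi-likelihood test, Benjamini-Hochberg) and with DESeq2 1.42.0; the edgeR fit was tested on simulated data. The SE is the size of the log2 fold change divided by the square root of F. CPM is TMM-normalised, and per kb uses the union of GENCODE exons. Poisson and Clopper-Pearson intervals (95%) and the limit of a 0 (3 counts) cover counting error only. Tumors of the same group differed far beyond sampling noise (chi-square over its degrees of freedom 17.1 to 28.9), so none was a duplicate. The genes and lists were chosen with earlier results of these data known, and the motifs with the sequences in view. Named genes are all members, the 5 profiles nearest to Chga and the 2 genes of smallest p in each list. Furin, Mbtps1, Cpm, Ptprn, Eipr1, Vamp2, Dnajc5, Syt11, Syt7, Creb1, Phox2a, Atf3, Gal and Insm1 and the markers named singly were chosen after their values were seen. Some genes of the marker and regulator lists are not reported here and were left out of their counts and sums.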

Additional observations from a re-analysis of the deposited data

How the results depend on the processing

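For all genes, where 0 were called higher and 0 lower, 26 and 3 were called without the filter on low counts and 240 and 23 by DESeq2; the cause was not tested. Leaving out 1 tumor gave 0 to 17 genes higher and 0 lower, with 17 when before-peak replicate 2 was dropped, 13 when before-peak replicate 3 was and 9 when with-peak replicate 1 was. A replicate block gave 1 gene higher and 0 lower. The labels state no pairing, and deviations of same-numbered tumors correlated over genes at -0.06, -0.10 and 0.03; under the block Chga had a log2 fold change of 3.87. For Chga, leaving out 1 tumor gave 3.41 to 4.41 and a prior count of 2 gave 3.09. For Scg5 the leave-out range was -3.11 to -0.91 and for Vgf -2.41 to -0.36. The median of the convertase and trimming list was -0.11 to 0.09 and that of the vesicle list -0.05 to 0.02 with 1 tumor left out, and the vesicle median was -0.06 with library size alone. The prohormone list median of -0.25 was 0.02 without before-peak replicate 2. Chga, Scg3, Scg5 and Vgf rest on 0 to 54 counts per tumor, which limits the precision of their values; the smallest difference detectable at these counts was not computed.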

Other observations

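Some low-count genes of neural and secretory function were highest in single tumors, and they were picked after their values were seen. In with-peak replicate 2, which had the most Chga counts, Ddc (the decarboxylase of dopamine and serotonin synthesis) had 27 counts against 1 to 9 in the other tumors, and Cck, the cholecystokinin precursor, had 25 against 0 to 8. In before-peak replicate 3, which had the most Scg5 and Vgf counts, the neurofilament gene Nefh had 18 counts against 1 to 5 elsewhere and Cpm, the membrane carboxypeptidase M, had 55 against 1 to 8. In before-peak replicate 1, which had the most Scg3 counts, the noradrenaline transporter gene Slc6a2 had 60 counts against 5 to 11 elsewhere.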
